A study of Mus musculus with 6 samples.

Results

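Heat shock proteins and chaperones fold new proteins and hold or refold damaged ones, and the genes described here are 36 members of that machinery in mouse B cells. The members were chosen as a list of gene symbols covering the heat shock transcription factors, the HSP70, HSP90, HSP110 and HSP60 systems with their partners, and the TRiC ring, and each row of the deposited table that bore a listed symbol was taken. All 36 were found among 22788 genes. They were kept in 5 groups, named heat-inducible (10 genes), heat shock factors (2), constitutive cytosolic (13), mitochondrial (3) and TRiC (8 subunits). Induction by heat was not measured here, and the names do not mean that genes outside the heat-inducible group are not induced by heat. The mitochondrial members Hspa9, Hspd1 and Hspe1 do not belong to the cytosol, although they are counted with the others.

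As background, heat shock factor 1 (HSF1) binds arrays of GAA and TTC triplets, the heat shock elements, when unfolded protein draws chaperones away from it, and it then drives HSP70, HSP90, small heat shock proteins and their partners. HSP70 works in a cycle set by J-domain proteins, which deliver clients and start ATP hydrolysis, and by exchange factors of the HSP110 and BAG families, which release ADP. HSP90 receives kinases and receptors from HSP70 through the adaptor encoded by Stip1, and TRiC encloses actin, tubulin and WD40-repeat proteins in a double ring. HSC70 and HSP90 beta are made without stress, and in the B lineage antibody secretion places a further load on protein folding.

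The comparison was between 2 groups of 3 libraries. The WT group came from wild type C57BL/6 mice, and the PP2Aa-deficient group from mice of the same strain background that carry floxed Ppp2r1a, the gene for the PP2A scaffold protein, and a Cre recombinase specific to B cells. All mice were 8 weeks old. The labels give no Cre or floxed allele for the WT mice, name the spleen as the tissue, and describe a peritoneal wash in the protocols. A deposited plate sheet also describes the wells by the words miRNA CTRL (WT) or miRNA target (PP2Aa-deficient), which the labels do not use. These conflicts were not settled.

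Sequence around the transcription start is shown first, because heat shock elements near the start are what HSF1 binds. No response to HSF1 was measured in these libraries. RefSeq promoter windows of GRCm38.p6, from 250 bases before to 50 bases after a start, were held for 29 of the 36 genes in 38 windows (Hsp90aa1, Hsf1, Hspa8, Hsp90ab1, St13, Hspa9 and Cct4 had no entry). An element of 3 units, GAA and TTC in turn with any 2 bases between units, searched on both strands, occurred in 5 of these 29 genes, which were Chordc1, Hsph1, Hspd1, Hspe1 and Dnajb6. Such elements occurred in 0.662% of all 27025 genes with a window, and in 0.603% of all 32851 windows of the same length. A shorter form of 2 units (GAANNTTC or TTCNNGAA), every match to the longer form included, occurred in 8 of 9 heat-inducible genes with a window. It was found in 3 of 10 constitutive cytosolic genes, in 2 of 2 mitochondrial genes and in 3 of 7 TRiC genes (Cct2, Cct5 and Cct6a). Its share was 17% over all genes with a window and 15.1% over all windows. Genes with several windows had more chances to match, and a match of letters is a description of the sequence, not of binding. Only Dnajb1 among the heat-inducible genes with a window had neither form in the windows held. The full windows of Chordc1, with an unbroken row of 5 units across its start, and of Cct3, 1 of the TRiC genes without a match, are given as examples of a window with and without the letters, and do not stand for their groups. They lie at chr9:18292017-18292316 and chr3:88296885-88297184 on the plus strand, and capitals mark the GAA and TTC units of matched elements.
Chordc1: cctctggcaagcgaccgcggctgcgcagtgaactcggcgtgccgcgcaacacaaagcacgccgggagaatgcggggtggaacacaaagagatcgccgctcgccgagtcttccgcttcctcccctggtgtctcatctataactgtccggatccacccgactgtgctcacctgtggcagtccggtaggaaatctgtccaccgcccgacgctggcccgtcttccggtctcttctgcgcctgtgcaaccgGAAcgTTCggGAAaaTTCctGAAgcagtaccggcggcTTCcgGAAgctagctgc
Cct3: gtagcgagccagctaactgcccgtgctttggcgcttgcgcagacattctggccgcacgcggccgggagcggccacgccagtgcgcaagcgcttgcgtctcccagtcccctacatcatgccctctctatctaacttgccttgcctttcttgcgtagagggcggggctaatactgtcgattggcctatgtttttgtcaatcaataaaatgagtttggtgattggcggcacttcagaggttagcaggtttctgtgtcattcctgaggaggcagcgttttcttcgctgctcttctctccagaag

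Shorter stretches of 20 to 30 bases show the longest element in the windows of 6 other genes, with up to 6 bases on each side. Hspe1 and Hspd1 are transcribed away from each other, and the same row of 4 units, at chr1:55088053-55088082, lies in the windows of both. The stretches of Hspa1a, at chr17:34972247-34972266, and Hspa1b, at chr17:34959329-34959348, both on the minus strand, hold the same letters, and the windows of these genes were identical at 296 of 300 positions. Those of Dnajb6 (chr5:29735846-29735870), Hspb1 (chr5:135887796-135887815) and Hspe1 are on the plus strand, and that of Hsph1 (chr5:149636287-149636306) is on the minus strand, cut at the window's end.
Hspe1: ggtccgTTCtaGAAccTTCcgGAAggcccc
Dnajb6: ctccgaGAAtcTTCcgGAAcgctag
Hsph1: tgcagaTTCtgGAAagTTCt
Hspa1a: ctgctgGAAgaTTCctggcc
Hspa1b: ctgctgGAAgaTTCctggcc
Hspb1: acaagaGAAgtTTCcagatg

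Levels are given as deposited, in FPKM (fragment counts divided by the length of the transcript and the size of the library). The spacing of low values put relative depth between 0.98 and 1.76, or about 2060000 to 3700000 fragments per library, with transcript lengths of GENCODE M21. Floxed Ppp2r1a itself stood at 85.7, 85.4 and 83.7 FPKM in WT replicates 1 to 3 and at 31.3, 56.2 and 28.2 across PP2Aa-deficient replicates 1 to 3. These groups did not overlap, with a log2 change of -1.18 (SE 0.23) and a limma adjusted p of 0.168 over 9425 tested genes. In such bulk samples fewer cells that express a gene and less RNA of it per cell cannot be told apart. Of the B cell identity genes, 9 were taken, among them Cd79a and Ms4a1, all 9 passed the filter, and their summed level ranged from 3082 to 3493 FPKM over the libraries. Xist, the RNA of the inactive X, reached 65.1 FPKM in the first WT and 84.5 in the first PP2Aa-deficient library, with at most 0.116 in the others. Nothing in the labels says that the libraries came from separate animals. Xist differed within each group, so the libraries of a group did not all come from a single animal. Those of a group without Xist may still share an animal, so the p-values cover a spread that may be partly technical.

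The chaperones spanned a wide range of levels on the FPKM scale, and the same genes stood at the top in both groups. Hspa8, encoding the constitutive HSP70 (HSC70), was the most abundant member and ranked 50 among the 9425 tested genes by mean level. It was at 1541, 2204 and 2693 FPKM across WT replicates 1 to 3 and at 2420, 2065 and 1921 across PP2Aa-deficient replicates 1 to 3. Hsp90ab1, encoding HSP90 beta, ranked 92, with 744, 1036 and 1173 FPKM across WT and 1047, 926 and 865 across PP2Aa-deficient libraries. Together Hspa8 and Hsp90ab1 made up between 47.2% and 50.7% of the summed FPKM of the 36 genes in each library. In both genes the WT libraries held the lowest and the highest value, and the PP2Aa-deficient libraries lay between. The lowest member was Hspa4l, which rested on about 21 to 80 fragments per library, and Bag3, Bag1 and Hsf2 on about 13 to 82. Fragment counts of single genes were taken with the longest transcript of each gene, and a shorter transcript would give fewer. All 36 passed the filter on low values, which was at least 1 FPKM in at least 3 libraries.

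**Figure D1:**
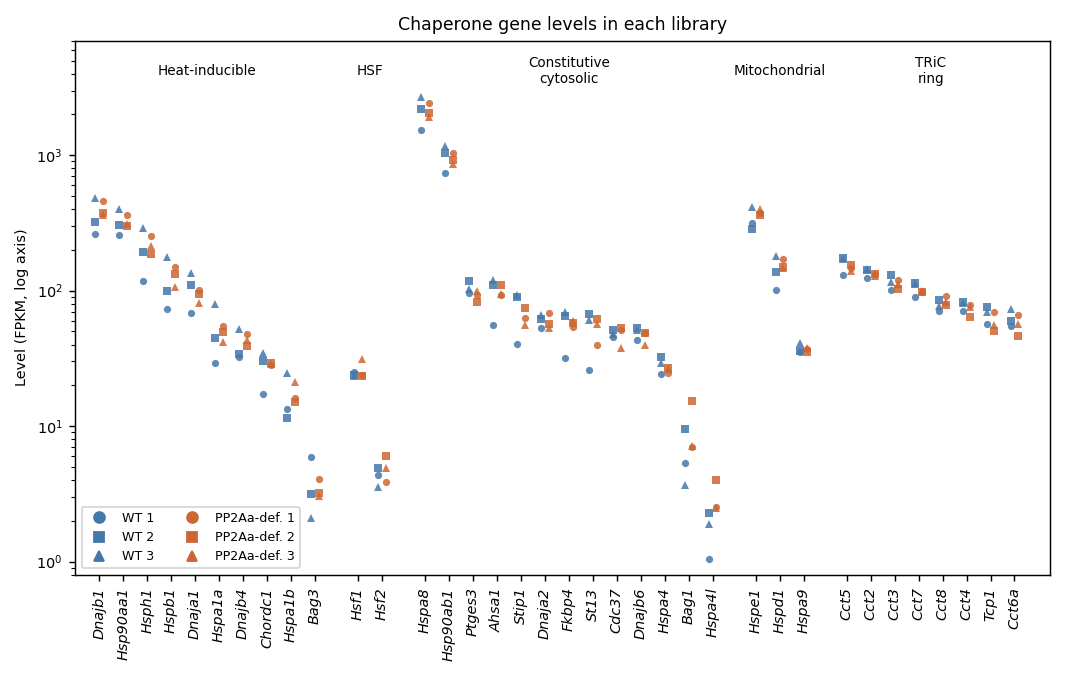
Level of each gene in each library, in FPKM on a log axis, with genes sorted by mean level within the 5 groups; blue marks are WT, orange marks PP2Aa-deficient, and the shape gives the replicate. Hspa8 sits highest, between 1541 and 2693 FPKM, Hspa4l lowest, between 1.03 and 3.97, and the circle of WT replicate 1 is the lowest mark in 24 of the 36 genes.

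None of the 36 genes differed between PP2Aa-deficient and WT B cells past the threshold. The limma test (two-sided, on log2(FPKM + 1), adjusted over all genes tested by Benjamini-Hochberg) called 0 members higher and 0 lower, against 0% of all tested genes called higher and 0.0318% called lower. The count of members with an unadjusted limma p under 0.05 was also 0, against 9.47% of all tested genes. Fitted changes were higher than 0 for 19 members and lower for 17, and 48.9% of all tested genes were higher. The median log2 change was 0.027 over the members and -0.007 over all tested genes. Estimates of log2 change ran from -0.20 for Ptges3 and Tcp1 to 0.59 for Bag1, and their standard errors from 0.11 to 0.36. The groups failed to overlap in 1 member, Hspa4l, against 15.1% of all tested genes.

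**Figure D2:**
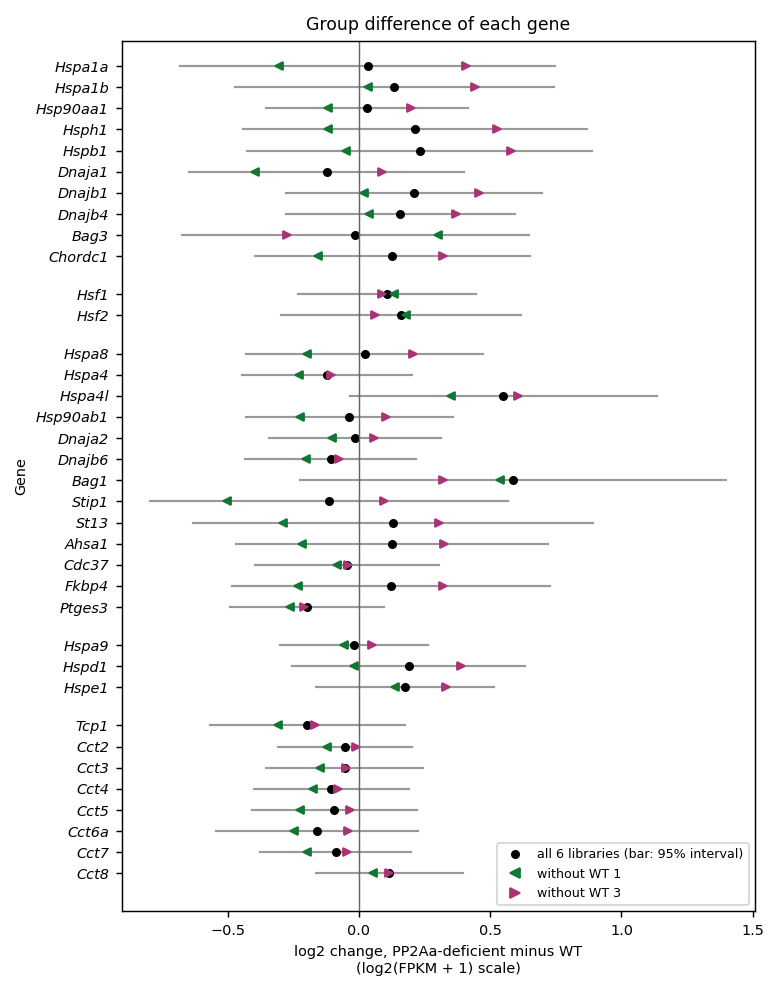
Log2 change of each gene, PP2Aa-deficient minus WT, on the log2(FPKM + 1) scale, from all 6 libraries (black, with its 95% interval) and from the fits without WT replicate 1 (green) or WT replicate 3 (purple). Every interval spans 0, and for most heat-inducible genes the green and purple marks lie on either side of the black one.

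Most of the chaperones had both their highest and their lowest level among the WT libraries. WT replicate 1 was the lowest of the 6 libraries in 24 of 36 members, against 21.9% of all tested genes. Its counterpart at the top was WT replicate 3, the highest in 19 of 36, against 18% of all tested genes, and WT replicate 2 in 9. The highest and the lowest library were both WT in 24 of 36 members, against 19.5% of all tested genes. The standard deviation of log2(FPKM + 1) was larger in WT than in PP2Aa-deficient libraries in 28 of 36 members, against 51.9% of all tested genes. Its median over the members was 0.33 over WT and 0.17 over PP2Aa-deficient libraries, and over all tested genes 0.22 and 0.21. With 3 libraries a group these are descriptions, and a difference in spread between the groups was not tested. The summed level of the 36 genes was 4767, 6395 and 7697 FPKM across WT replicates 1 to 3 and 6904, 6113 and 5898 across PP2Aa-deficient replicates 1 to 3.

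**Figure D3:**
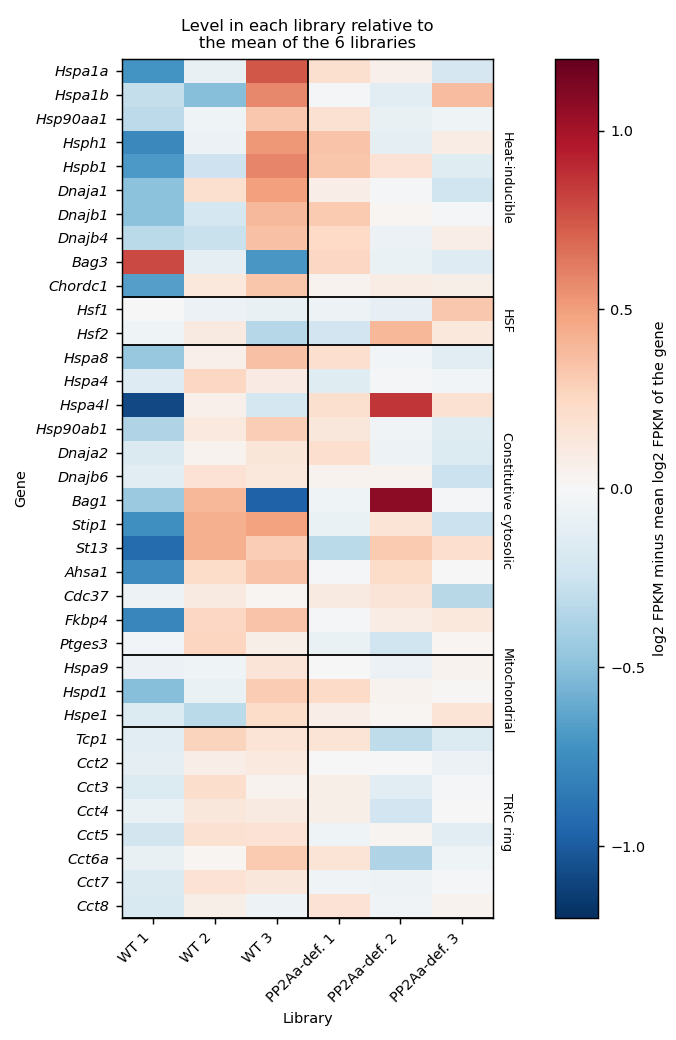
Log2 FPKM of each gene in each library minus the mean log2 FPKM of that gene over the 6 libraries, with red for higher and blue for lower; horizontal lines part the 5 groups and the vertical line parts WT from PP2Aa-deficient libraries. The column of WT replicate 1 is blue in most rows and that of WT replicate 3 red, with Bag3 the other way round and the TRiC rows pale.

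Of the member groups, the heat-inducible genes had the largest median spread in WT, with an SD of log2(FPKM + 1) of 0.52, against 0.18 in PP2Aa-deficient libraries. The constitutive cytosolic genes followed, with medians of 0.36 and 0.17. Among these, St13, Stip1, Fkbp4, Ahsa1 and Bag1 were each above 0.52 in WT, and the others were below it. All 10 heat-inducible genes had both their highest and their lowest value in WT. WT replicate 3 was the highest library in 9 of them and WT replicate 1 the lowest in 8. The median ratio of WT replicate 3 to WT replicate 1 was 1.91 over these genes and 1.03 over all tested genes. Relative to each gene's mean over the 6 libraries, the median level of the group was 0.70, 0.89 and 1.33 in WT replicates 1 to 3 and 1.13, 0.95 and 0.96 across PP2Aa-deficient replicates 1 to 3. Fitted changes were above 0 in 8 of 10, with a median log2 change of 0.13, and the smallest limma adjusted p was 0.82.

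Among the inducible HSP70 genes, Hspa1a was at 29.1, 45.04 and 80.0 FPKM in WT replicates 1 to 3 and at 54.7, 49.9 and 41.5 across PP2Aa-deficient replicates 1 to 3. Its copy Hspa1b was at 13.5, 11.5 and 24.5 FPKM across WT and at 16.2, 15.0 and 21.1 across PP2Aa-deficient libraries. In both genes every PP2Aa-deficient value lay inside the WT range. The log2 change was 0.03 (SE 0.31, limma adjusted p = 0.99) for Hspa1a and 0.13 (SE 0.27, limma adjusted p = 0.92) for Hspa1b. The longest reading frames of the pair are 99.4% identical with a shared run of 638 bases, so the split of fragments between them is uncertain. Added together, they were at 42.5, 56.5 and 104 FPKM across WT and 70.9, 64.9 and 62.6 across PP2Aa-deficient libraries, with a log2 change of 0.063 for the sum. Inducible HSP70 remained a small part beside HSC70, at 2.76%, 2.56% and 3.88% of the Hspa8 level across WT and 2.93%, 3.14% and 3.26% across PP2Aa-deficient libraries.

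Hsp90aa1, the inducible HSP90 alpha, was at 257, 307 and 398 FPKM across WT and at 362, 300.2 and 308 across PP2Aa-deficient replicates 1 to 3, a log2 change of 0.03 (SE 0.17, limma adjusted p = 0.97). Its ratio to Hsp90ab1 stayed between 0.296 and 0.356 over the 6 libraries, while the highest library exceeded the lowest 1.55 times for Hsp90aa1 and 1.58 times for Hsp90ab1. Hsph1, an HSP110 exchange factor, was at 118, 191 and 289 FPKM across WT and at 254, 186 and 214 across PP2Aa-deficient libraries. Hspb1, a small heat shock protein that holds unfolded clients, was at 73.7, 99.5 and 178 FPKM across WT and at 149, 133 and 107 across PP2Aa-deficient libraries. These genes differed 2.46-fold and 2.41-fold between WT replicates 3 and 1, and their log2 changes between groups were 0.21 (SE 0.29) and 0.23 (SE 0.29).

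Of the J-domain proteins, Dnajb1, the main partner of inducible HSP70 and the most abundant heat-inducible member, was at 263, 319 and 484 FPKM across WT and at 461, 375 and 364 across PP2Aa-deficient libraries. Its log2 change was 0.21 (SE 0.21, limma adjusted p = 0.82). Dnaja1 was at 68.4, 109 and 135 FPKM across WT and at 102, 94.4 and 81.2 across PP2Aa-deficient libraries, and Dnajb4 measured 39.5 ± 10.8 and 43.3 ± 4.56 FPKM (SD, n = 3). RefSeq lists Dnajb4 as overlapping Fubp1, which could add fragments to it. Chordc1, an HSP90 partner whose 5-unit element is printed above, was at 17.3, 29.98 and 34.5 FPKM across WT and at 28.2, 29.2 and 28.8 across PP2Aa-deficient libraries. The PP2Aa-deficient values of Chordc1 lay within a 1.03-fold range, while WT replicate 3 was 1.99 times WT replicate 1. Bag3, an exchange factor that routes clients to autophagy, ran against the rest, with 5.90, 3.15 and 2.10 FPKM across WT and 4.05, 3.21 and 3.06 across PP2Aa-deficient libraries. It rested on about 14 to 32 fragments per library.

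**Figure D4:**
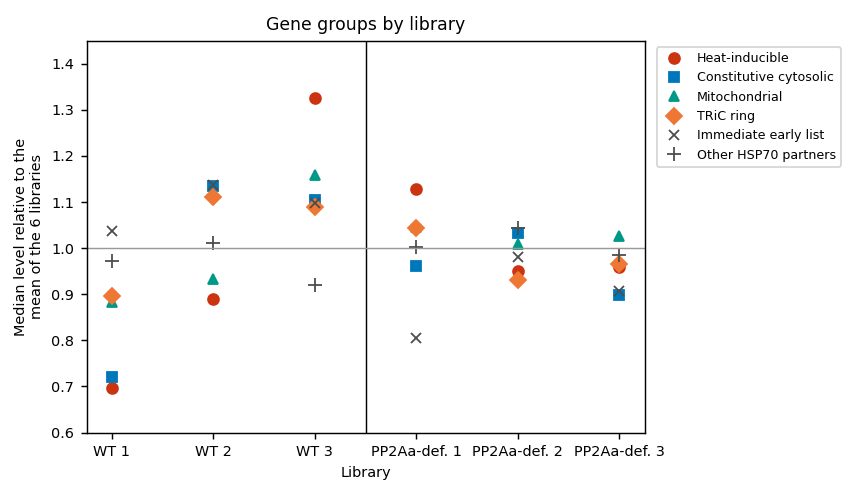
Median level of each gene group in each library relative to the mean of each gene over the 6 libraries (vertical axis, a ratio), for 4 chaperone groups and for the tested genes of the immediate early list and of the other HSP70 partners. The heat-inducible group runs from 0.70 in WT replicate 1 to 1.33 in WT replicate 3, while the other HSP70 partners stay between 0.92 and 1.04.

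For the heat-inducible, constitutive cytosolic and mitochondrial genes, the median difference had opposite signs without WT replicate 1 and without WT replicate 3. These libraries were most often the lowest and the highest for the members, so the direction of these shifts was fixed in advance. The constitutive cytosolic median was also above 0 without WT replicate 2 (0.061), PP2Aa-deficient replicate 2 (0.005) or PP2Aa-deficient replicate 3 (0.062). Without WT replicate 1, fitted changes were above 0 in 10 of 36 members, against 46.9% of all genes tested there. They were then above 0 in 4 of 10 heat-inducible genes (median log2 change -0.084) and in 2 of 13 constitutive cytosolic genes (median -0.216). Without WT replicate 3, they were above 0 in 24 of 36 members, against 50.1% of all genes tested there. They were then above 0 in 9 of 10 heat-inducible genes (median 0.388) and in 9 of 13 constitutive cytosolic genes (median 0.103). The mitochondrial median was -0.019 without WT replicate 1 and 0.333 without WT replicate 3. The medians of TRiC stayed below 0 and those of the heat shock factors above 0 without either library. In all, 15 of the 36 members kept their sign in every alternative that tested them. Hsf2 and Hspa4l, counted among these, were not tested with the filter at 5 FPKM. The term for Xist, no mean-variance trend and the changed filters leave each estimate as it was, so they could not change a sign. Stip1, the HSP70 to HSP90 adaptor (log2 change -0.50, limma adjusted p = 0.273), and Dnaja1 (-0.40, limma adjusted p = 0.376) had an unadjusted limma p under 0.05 without WT replicate 1, as did 11% of all genes tested there. Hspb1 (0.58), Dnajb1 (0.46), Dnajb4 (0.37) and Hspe1 (0.33) did so without WT replicate 3, where 8.7% of all genes did, and Hspa4l (0.70) and Bag1 (0.905) without WT replicate 2, where 7.02% did. With every library kept, Hspa4l (0.55) also did so with a term for Xist and with no mean-variance trend, where 10.1% and 9.12% of all genes did. No member passed over all genes in any of these fits.

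Hsf1, the factor that drives the inducible genes, did not share their pattern. It was at 24.9, 23.7 and 23.4 FPKM across WT and at 23.9, 23.4 and 31.3 across PP2Aa-deficient replicates 1 to 3, a log2 change of 0.11 (SE 0.15, limma adjusted p = 0.88). The WT values were close together, and PP2Aa-deficient replicate 3 alone stood above the other libraries. Hsf2, a related factor active in development, was at 4.37, 4.87 and 3.56 FPKM across WT and at 3.84, 5.97 and 4.93 across PP2Aa-deficient libraries (log2 change 0.16, SE 0.20). HSF1 is controlled mostly after translation, so its mRNA level is not a measure of its activity.

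The constitutive cytosolic genes had a median log2 change of -0.01, with 6 of 13 above 0. For Hspa8 it was 0.02 (SE 0.20, 95% interval -0.43 to 0.47) and for Hsp90ab1 -0.04 (SE 0.17, 95% interval -0.43 to 0.36). WT replicate 1 was the lowest library in 9 of the 13. Several partners of HSP70 and HSP90 varied more than 2-fold within WT. Stip1 was at 40.05, 89.3 and 93.2 FPKM across WT and at 63.0, 74.8 and 55.8 across PP2Aa-deficient libraries. St13, encoding the HSP70-interacting protein Hip, was at 26.1, 66.7 and 61.0 FPKM across WT and at 39.7, 61.8 and 57.0 across PP2Aa-deficient libraries. Ahsa1, which stimulates the ATPase of HSP90, was at 55.9, 110 and 119 FPKM across WT and at 93.3, 110 and 93.7 across PP2Aa-deficient libraries. In each of these WT replicate 1 was far below both other WT libraries, and so it was for the immunophilin gene Fkbp4, at 31.8, 64.8 and 69.4 FPKM across WT and 53.8, 58.1 and 59.5 across PP2Aa-deficient libraries. Cdc37, which hands kinases to HSP90, and Ptges3, the p23 cochaperone that closes the cycle, were not low in WT replicate 1 to that degree. Cdc37 measured 48.1 ± 2.74 FPKM over WT and 47.1 ± 8.28 over PP2Aa-deficient libraries, and Ptges3 105 ± 10.96 and 91.6 ± 8.23 (SD, n = 3).

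Hspa4l, an HSP110 family exchange factor, was the member with the smallest p. It was at 1.03, 2.28 and 1.89 FPKM across WT and at 2.51, 3.97 and 2.48 across PP2Aa-deficient replicates 1 to 3, so every PP2Aa-deficient value was above every WT value. The log2 change was 0.55 (SE 0.26, 95% interval -0.03 to 1.13), with a limma adjusted p of 0.543. Its relative Hspa4 was better expressed and showed no such order, at 28.6 ± 3.98 FPKM over WT and 26.1 ± 1.27 over PP2Aa-deficient libraries (SD, n = 3). Bag1, an exchange factor that also binds BCL2, was at 5.31, 9.51 and 3.69 FPKM across WT and at 6.97, 15.2 and 7.17 across PP2Aa-deficient libraries, where replicate 2 stood apart (log2 change 0.59, SE 0.36, limma adjusted p = 0.663). The J-domain genes Dnaja2, at 60.2 ± 6.66 and 59.7 ± 7.97 FPKM, and Dnajb6, at 49.2 ± 5.51 and 45.6 ± 5.27, differed between groups by less than their SDs.

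In the mitochondrial chaperonin, Hspd1 (HSP60) was at 102, 138 and 180 FPKM across WT and at 170, 150 and 147 across PP2Aa-deficient libraries. Its lid Hspe1 (HSP10) was at 317, 284 and 415 FPKM across WT and at 375, 362 and 398 across PP2Aa-deficient libraries. Both were highest in WT replicate 3, and they differed in which WT library was lowest. The ratio of Hspd1 to Hspe1, which share the element printed above, ranged from 0.321 to 0.485 in WT and from 0.368 to 0.454 in PP2Aa-deficient libraries. RefSeq lists these genes as overlapping, so some fragments may belong to either. The log2 changes were 0.19 (SE 0.19) and 0.18 (SE 0.15). Hspa9, the mitochondrial HSP70 that pulls proteins across the inner membrane, was at 35.2, 35.7 and 41.1 FPKM across WT and at 36.9, 35.3 and 38.0 across PP2Aa-deficient libraries, the narrowest range of the 3.

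The TRiC subunits varied less across WT libraries than the heat-inducible genes, with a median SD of log2(FPKM + 1) of 0.19 over WT and 0.10 over PP2Aa-deficient libraries. The summed level of the ring was 700.0, 863 and 846 FPKM across WT replicates 1 to 3 and 804, 729 and 750 across PP2Aa-deficient replicates 1 to 3. The groups overlapped for the sum and for each of the 8 subunits. Fitted changes were below 0 in 7 of 8 subunits, with a median log2 change of -0.09, and Cct8 was above 0 at 0.12 (SE 0.12). The subunits were read in the same libraries and are not replicates of each other, and quantile normalization turned Cct2 to 0.014. Without WT replicate 1 or without WT replicate 3, 7 of 8 were also below 0, with medians of -0.185 and -0.044. Without WT replicate 2, 6 of 8 were below 0, with a median of -0.028 and Cct3 at 0.036. The smallest limma adjusted p was 0.774, for Tcp1, at 57.1, 75.2 and 69.8 FPKM across WT and 70.1, 50.5 and 55.9 across PP2Aa-deficient libraries.

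The ring holds its subunits in equal number, and their mRNAs were not equal per length. Cct5 was the highest, at 131, 173 and 171 FPKM across WT and 147, 155 and 140 across PP2Aa-deficient libraries, and Cct6a the lowest by mean, at 55.3, 59.8 and 73.5 across WT and 66.2, 46.1 and 56.8 across PP2Aa-deficient libraries. Within a library the highest subunit exceeded the lowest between 2.22 and 3.37 times. Relative to the median subunit of each library, Cct5 stood at 1.72 ± 0.08 over WT and 1.62 ± 0.13 over PP2Aa-deficient libraries, and Cct2 at 1.496 ± 0.064 and 1.448 ± 0.07 (SD, n = 3). Cct3 and Cct7 were also above the median in every library, while Cct8, Cct4, Tcp1 and Cct6a were below it. Cct8 stood at 0.846 ± 0.04 over WT and 0.922 ± 0.037 over PP2Aa-deficient libraries, and Tcp1 at 0.731 ± 0.023 and 0.643 ± 0.086. In FPKM, the remaining subunits measured 137 ± 11.3 and 132 ± 3.19 for Cct2, 116 ± 14.95 and 111 ± 7.64 for Cct3, 78.1 ± 6.38 and 72.6 ± 7.53 for Cct4, 105 ± 13.3 and 98.2 ± 1.298 for Cct7, and 77.6 ± 7.03 and 84.1 ± 6.48 for Cct8 (WT first, SD, n = 3). The reading frames of the 8 subunits are 47.7% to 53.3% identical in pairs. Tcp1, Cct6a, Cct7 and Cct8 overlap other genes in RefSeq (among them Mrpl18, Psph, Pradc1 and Usp16), which could add fragments to them.

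**Figure D5:**
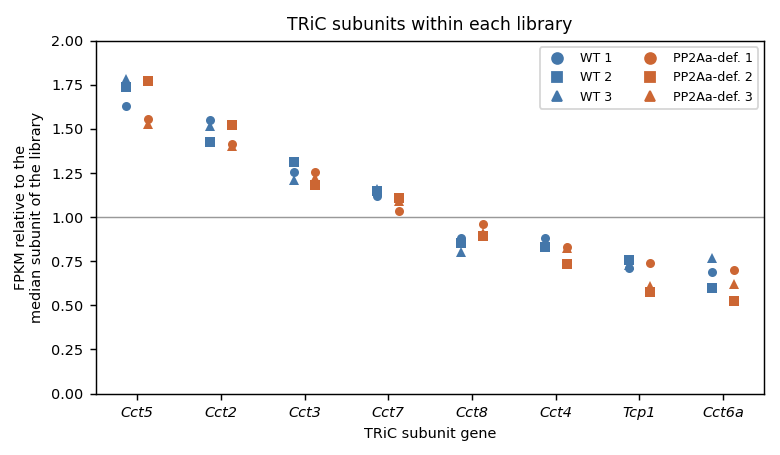
FPKM of each TRiC subunit divided by the median subunit of the same library (vertical axis), for WT (blue) and PP2Aa-deficient (orange) libraries, with the shape giving the replicate. Cct5, Cct2, Cct3 and Cct7 follow in this order in all 6 libraries, with Cct5 at 1.53 to 1.78, while Tcp1 and Cct6a overlap at the bottom, with Cct6a at 0.53 to 0.77.

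Hspa1a, Hspa1b, Hsp90ab1 and Tcp1 lie on chromosome 17, as Ppp2r1a does. Their log2 changes, 0.03, 0.13, -0.04 and -0.20, did not pass the test.

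Further genes of the pathway were taken from lists, and 0 of them passed over all genes. Tested genes named here were among those of smallest p in their list, a choice that favours groups without overlap. Dnajc17, Stub1, Hspbap1, Nudc, Vbp1, Uri1, Ddit3 and Atf4 had such groups, as did 15.1% of all tested genes. Of 23 tested HSP70 partners, 11 were above WT and 12 below. Dnajc17, a J-domain protein, was at 11.01, 10.1 and 10.1 FPKM across WT and at 5.79, 5.11 and 5.94 across PP2Aa-deficient libraries, groups that did not overlap (log2 change -0.79, SE 0.15, limma adjusted p = 0.146). Stub1, the ubiquitin ligase CHIP that marks chaperone clients for degradation, was at 26.4, 27.7 and 27.9 FPKM across WT and at 38.2, 37.4 and 30.99 across PP2Aa-deficient libraries (log2 change 0.36, SE 0.13, limma adjusted p = 0.445). Hspbap1 measured 1.38 ± 0.46 and 2.49 ± 0.34 FPKM and Hspa2, an HSP70 best known from testis, 7.41 ± 1.13 and 5.18 ± 1.12 (SD, n = 3). Of 18 tested HSP90 partners, 9 were above WT and 9 below. Nudc, a cochaperone of dynein regulators, was at 67.1, 74.8 and 81.3 FPKM across WT and at 90.7, 126 and 95.1 across PP2Aa-deficient libraries (limma adjusted p = 0.399), and Unc45a, a myosin chaperone, measured 18.6 ± 5.67 and 11.01 ± 2.55. Fkbp5 measured 1.08 ± 0.50 and 1.82 ± 0.20 FPKM, and Ppid 9.60 ± 0.83 and 8.36 ± 0.91. WT replicate 1 was the lowest library in 4 of the 23 HSP70 partners and 3 of the 18 HSP90 partners, and WT replicate 3 the highest in 2 and 4.

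Of 16 tested prefoldin and TRiC cofactor genes, 11 were above WT and 5 below. Vbp1, a prefoldin subunit that passes clients to TRiC, was at 25.9, 36.7 and 37.8 FPKM across WT and at 43.7, 43.2 and 42.2 across PP2Aa-deficient libraries, without overlap (log2 change 0.37, SE 0.16, limma adjusted p = 0.521). Uri1, a prefoldin-like protein, measured 2.35 ± 0.64 and 3.57 ± 0.37 FPKM, Pdrg1 18.9 ± 2.69 and 15.5 ± 2.198, and Pdcl 3.69 ± 1.05 and 4.72 ± 0.59 (SD, n = 3). Of 11 mitochondrial chaperone genes, 8 were above WT and 3 below, with Dnaja3 at 6.80 ± 1.34 and 8.93 ± 1.27 FPKM. Of 15 small heat shock protein and HSF regulator genes in the table, 4 were tested (2 above WT and 2 below), with 11 under the filter and Hspb2, Hspb3, Hspb8, Serpinh1, Hsf3 and Hsf5 listed at 0 in every library. Among the tested, Vcp, the segregase of ubiquitylated proteins, measured 38.8 ± 5.52 and 34.6 ± 4.05 FPKM and Hsbp1, a binder of HSF1, 27.5 ± 3.92 and 29.8 ± 4.84. Of 9 tested genes of other stress responses, 7 were below WT, among them Ddit3, encoding CHOP, at 144, 150 and 160 FPKM across WT and 136, 128 and 119 across PP2Aa-deficient libraries, and Atf4, at 255, 260 and 246 across WT and 237, 225 and 203 across PP2Aa-deficient libraries. Neither passed (limma adjusted p = 0.539 and 0.624). Their groups did not overlap, as in 15.1% of all tested genes.

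Other measures that differed between the WT libraries are set beside the low chaperone level of WT replicate 1 and the high level of WT replicate 3. Relative depth was 1.00, 1.76 and 1.23 in WT replicates 1 to 3 and 1.19, 0.98 and 1.15 across PP2Aa-deficient replicates 1 to 3. The tested genes of the immediate early list, genes known to respond to cell handling, had median relative levels of 1.04, 1.14 and 1.10 across WT and 0.81, 0.98 and 0.91 across PP2Aa-deficient libraries. This list also differed between groups, with 10 of 14 genes below WT and 4 above. An unadjusted limma p under 0.05 was reached by 5 of those below and 1 of those above, against 9.47% of all tested genes. The 9 plasma cell genes in the table summed to 2094, 1344 and 1373 FPKM across WT and 753, 996 and 726 across PP2Aa-deficient libraries. All 9 were below WT, 5 of them with an unadjusted limma p under 0.05, and 0 passed over all genes. The 14 macrophage genes summed to 369, 253 and 195 FPKM across WT and to 112, 169 and 115 across PP2Aa-deficient libraries, with Gata6 listed at 0 throughout. T cell genes (8 in the table) summed to 37.4, 22.0 and 21.02 FPKM in WT and to 21.5 to 28.1 in PP2Aa-deficient libraries. Mast cell and eosinophil genes (6, with Fcer1a and Epx listed at 0) summed to 21.7 to 41.4 FPKM in WT and 6.09 to 15.5 in PP2Aa-deficient libraries, natural killer genes (7) to 7.88 to 9.04 and 3.501 to 8.93, neutrophil genes (7, with Elane, Retnlg and Camp listed at 0) to 1.91 to 6.19 and 0.788 to 6.40, erythroid genes (8) to 1.70 to 5.33 and 1.86 to 41.7, and mesothelial and stromal genes (7) to 31.4 to 40.9 and 30.5 to 36.2, the last with Msln, Wt1, Krt19, Col1a1 and Col3a1 listed at 0 throughout. The sums of plasma cell, macrophage, T cell, natural killer, and mast cell and eosinophil genes were highest in WT replicate 1, which also carried Xist. PP2Aa-deficient replicate 1 carried Xist too, and its summed chaperone level, 6904 FPKM, was the highest of its group. By the median relative level of tested genes, the macrophage list was at 1.09 in WT replicate 1, 1.16 in WT replicate 2 and 1.13 in WT replicate 3. The part of depth, of cell handling and of these cell types in the chaperone levels was not tested.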

How the data were processed

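Total RNA of mouse B cells was sequenced as 6 libraries with a low-input SmartSeq2 protocol, per the labels' protocols. The authors deposited 1 table of FPKM values for 22815 rows. Its columns were matched to samples by the well names in its header. Cuffnorm, Cufflinks 2.2.1, TopHat2 2.0.10 and BWA are the tools in the submitters' processing notes (roles not stated). The genome build, annotation, use of strand and handling of multiply mapped reads were not given in the sources used here. FPKM values carry no counts, so depth was estimated from the steps between low values. Rows named by dates (27) were left out. Genes with at least 1 FPKM in at least 3 libraries (9425) were tested as log2(FPKM + 1) with limma 3.58.1 in R 4.3.3, moderated with a mean-variance trend, two-sided, with Benjamini-Hochberg adjustment over all tested genes at 0.05, and WT and PP2Aa-deficient as the groups. Fold changes on this scale understate the change of low genes. The fit was tested on data simulated with independent normal noise at its own fitted variances, which does not measure its power in these libraries. Python 3.11.15, pandas 2.3.3, numpy 2.4.6 and matplotlib 3.10.9 made summaries and figures. Alternatives were array weights, no trend, median-ratio scaling, quantile normalization, filters at 5 FPKM or none, pseudocounts of 0.1 and 0.5, a term for Xist, leaving out each library, and adding Hspa1a to Hspa1b.

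The members, the groups within them and the other lists were chosen with earlier results of these data known. By rule, values in every library are given for Hsf1, Hsf2, Hspa1a, Hspa1b, Hspa8, Hsp90aa1 and Hsp90ab1, for members with an unadjusted limma p under 0.05 or groups without overlap, and for the highest and lowest of each group by mean. The other members shown by library were chosen after their values were seen. Of each pathway list, up to 4 tested genes of smallest p were eligible to be named. A deposited plate sheet of 12 wells holds no measurements and gave no values. A withheld item is not reported here.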

Additional observations from a re-analysis of the deposited data

How the results depend on the processing

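No member passed over all genes under any of the 15 alternatives that refitted the table. Hsf2, Hspa4l and Bag3 fell under the filter at 5 FPKM and were not tested there. Over all genes, array weights called 11 higher and 5 lower genes, no mean-variance trend 4 and 5, and quantile normalization 7 and 4. The filter at 5 FPKM called 3 higher and 2 lower genes, and no filter 1 and 3. Fits without 1 library called 0 to 4 higher and 1 to 12 lower. The directions of 15 members held in every alternative that tested them. The other 21 crossed 0 in at least 1 alternative, as small changes do, and the cause was not tested. The term for Xist, no mean-variance trend and the changed filters could not change a sign, since they leave each estimate as it was. Array weights gave log2 changes of -0.05 for Hspa1a, 0.10 for Bag3, -0.056 for Hspa8, -0.11 for St13, -0.047 for Ahsa1 and -0.044 for Fkbp4. Quantile normalization gave 0.13 for Hsp90ab1, 0.019 for Dnaja2 and 0.014 for Cct2, and a pseudocount of 0.1 gave 0.006 for Bag3. Without 1 library at a time, log2 changes ranged from -0.306 to 0.408 for Hspa1a, -0.073 to 0.443 for Hspa1b, -0.117 to 0.199 for Hsp90aa1, -0.119 to 0.526 for Hsph1, -0.050 to 0.579 for Hspb1, -0.397 to 0.088 for Dnaja1, -0.275 to 0.301 for Bag3 and -0.156 to 0.319 for Chordc1. They ranged from -0.024 to 0.180 for Hsf1, -0.197 to 0.205 for Hspa8, -0.224 to 0.103 for Hsp90ab1, -0.117 to 0.061 for Dnaja2, -0.503 to 0.096 for Stip1, -0.290 to 0.370 for St13, -0.216 to 0.326 for Ahsa1, -0.130 to 0.107 for Cdc37 and -0.230 to 0.322 for Fkbp4. For Hspa9 they ranged from -0.058 to 0.049, for Hspd1 from -0.019 to 0.389 and for Cct3 from -0.149 to 0.036. Ppp2r1a passed only without PP2Aa-deficient replicate 2 (-1.48). The median of the mitochondrial genes ranged from -0.019 without WT replicate 1 to 0.33 without WT replicate 3. No paired analysis was possible because the labels give no replicate numbers. Hspa4l, Bag1, Bag3 and Hsf2 rested on about 13 to 82 fragments per library, and their standard errors were 0.26, 0.36, 0.29 and 0.20.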
